A study of Rattus norvegicus with 15 samples.

Results

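The plus-strand probes of ultraconserved elements were examined on long non-coding RNA arrays of the rat enamel organ. A probe was taken when its name on the array began with the letters of the element series and its identifier ended in an element number and a plus sign. The array held 962 element probes, 1 for each strand of each element, among 38321 probes apart from control spots. The plus-strand probe of every element is a member here, which is 50% of the 962 and 1.26% of all probes, and each was printed on 3 spots. The element numbers ran from 1 to 483, with 2 numbers missing. No measured value entered this choice.

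The tissue was the enamel organ of the mandibular incisor of Wistar Hannover rats aged 4 weeks, without any treatment or genetic change named in the labels. The 3 groups were the cervical loop, the secretory stage and the maturation stage, with 5 arrays each, and every array carried Cy3-labelled total RNA of 1 sample. Per the series design the 15 samples came from 5 rats. Some rats thus gave more than 1 sample, and no label used here tells which samples share a rat. The fits without a block and the tests of detection counts treat the samples as independent, so their p-values measure the spread between these samples.

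Ultraconserved elements are stretches of DNA without a single base difference between human, mouse and rat, and they carry numbers given when they were catalogued. Many lie far from genes and act as enhancers, while others span exons of genes for RNA-binding proteins, often at exons whose inclusion marks the transcript for decay. Transcripts read from such elements, called transcribed ultraconserved regions, have been studied mostly in tumours and in the intestine. In the continuously growing rat incisor, progenitors lie at the cervical loop, secretory ameloblasts deposit the enamel matrix, and maturation ameloblasts remove the matrix while mineral is laid down.

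The tissue label gave the stage of each array. The titles of 8 arrays, replicates 2 to 5 of the secretory and maturation groups, name the other of these stages. Maturation replicates 1 to 4 shared 1 scan, maturation replicate 5 was scanned with secretory replicates 1 to 3, and the cervical loop arrays had a scan day of their own, so scan day and cervical loop cannot be told apart. Cervical loop replicate 2 had the fewest detected probes of its stage, 74.5% of all probes against up to 80.7%. Cervical loop replicate 3 stood closest to the secretory arrays: over 1487 other features that were highest in the secretory stage, its median normalized signal was -1.61, and those of the other cervical loop arrays were -2.41 to -2.0. Of the markers of enamel, dentin, bone, blood, vessel, nerve and muscle cells looked for, only Map2 had a named probe, so the tissue labels could not be checked against Amelx, Klk4 or other stage markers, and the part of other cell types in the results was not tested.

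More elements were detected in the cervical loop than in either later stage. A probe counted as detected when at least 50% of its spots were well above background by the scanner software's test. Of the members, 239, 184, 231, 236 and 240 were detected on cervical loop replicates 1 to 5. On the secretory arrays 163, 188, 158, 178 and 174 were detected, and on the maturation arrays 187, 202, 150, 164 and 195. The secretory range reached into the cervical loop range only through cervical loop replicate 2, and so did the maturation range.

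The mean number detected was 226.0 ± 23.7 (SD, n = 5) in the cervical loop, 172.2 ± 11.97 in the secretory stage and 179.6 ± 21.9 in maturation. Towards the secretory stage the number fell by 53.8 (2-sided exact permutation test, n = 5 a group, p = 0.0159, adjusted over 3 comparisons 0.0476). From the cervical loop to maturation it fell by 46.4 (exact permutation p = 0.0317, adjusted 0.0476), and maturation had 7.4 more than the secretory stage (exact permutation p = 0.540). The share of all probes detected fell alongside, with 78.8% in the cervical loop, 71.8% in the secretory stage (exact permutation p = 0.00794) and 73.8% in maturation (permutation p = 0.0317). The part of this array-wide shift in the members' counts was not tested. These permutation tests treat the samples as independent, though some share a rat. Scan day and cervical loop cannot be told apart in them. In whole tissue, fewer cells of a type and less RNA per cell cannot be told apart.

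**Figure D1:**
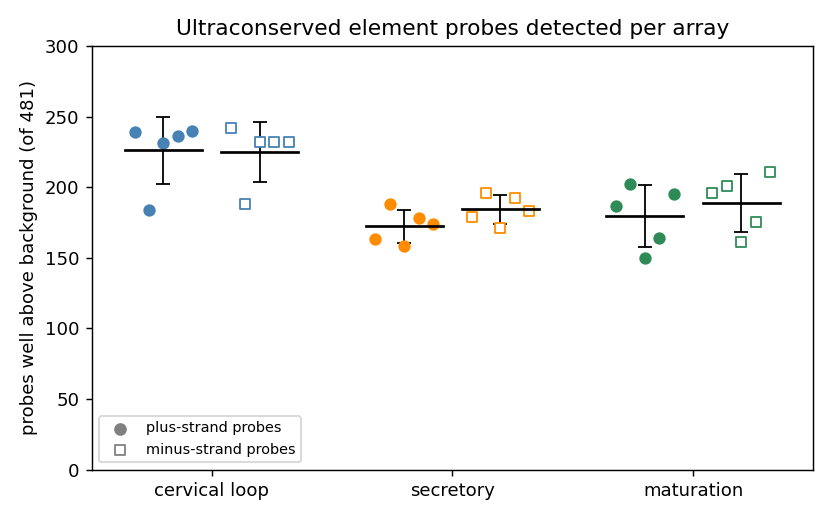
Number of element probes well above background on each array (y axis), by stage (x axis); filled circles are plus-strand and open squares minus-strand probes, and black lines give the mean and SD of 5 arrays. The cervical loop arrays lie at 231 to 240 plus-strand probes apart from replicate 2 at 184, and the secretory and maturation arrays lie at 150 to 202.

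The members fell into those never detected, those always detected and those between. On 0 of the 15 arrays were 207 members detected, which is 43.0% of them, against 12.1% of all probes. A further 125 members, 26.0%, were detected on every array, against 62.7% of all probes and 29.1% of the minus-strand probes of the same elements. The remaining 149 were detected on 1 to 14 arrays.

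Members entered the comparisons when they were detected on all 5 arrays of at least 1 stage. This held for 193 members, 40.1%, and not for 288, with 182 passing in the cervical loop, 142 in the secretory stage and 147 in maturation. The cervical loop alone brought in 35 of these 193, the secretory stage alone 2 and maturation alone 3. Such a member passed because of the stage in which it was high, so counts over the tested members are descriptions of those members and not of all elements. Adjusted p-values and a lack of overlap given below for such a member describe a probe chosen for that stage and are no separate support.

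At the edge of the filter, 30 members were detected on 4 of 5 arrays of their best stage and 51 on 1 to 3. The elements uc.326+, uc.144+ and uc.310+ and the one next after uc.345+ lay just outside. Signals are given here as log2 of the processed signal relative to the 75th percentile of its array, called normalized signal, so 0 is the 75th percentile of an array. The stage means of uc.326+, for example, were -4.69 in the cervical loop, then -5.61 in the secretory stage and -5.87 in maturation. Just inside the filter stood 10 members that were detected on 5 arrays in all. Of these, uc.30+, uc.61+, uc.81+, uc.158+, uc.221+, uc.282+, uc.337+ and uc.350+ were detected on the 5 cervical loop arrays only, and uc.176+ and uc.217+ on the 5 maturation arrays only. No member was detected on the 5 secretory arrays only.

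The tested members had a median mean normalized signal of -4.05, with a range from -6.86 to 3.49, against -1.72 for all 28844 features tested. Only 14 of the 193 lay above the 75th percentile in their mean. Signals of different probes depend on the probe as well as on the RNA, so they are not compared as transcript levels. Replicate spread was like that of other features: the median SD of the members was 0.30 in the cervical loop, 0.27 in the secretory stage and 0.26 in maturation, and over all features it was 0.31, 0.25 and 0.21. The 3 spots of a detected member differed by a median coefficient of variation of 10.02% over 2715 pairs of probe and array.

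Elements in genes of RNA processing were detected at every stage. These 5 elements were listed from general knowledge. They lie in Srsf11 (uc.28), Tra2b and Srsf3, which encode SR-family splicing regulators, in Ptbp2 (uc.33), which encodes the neuronal polypyrimidine-tract-binding protein, and in Pcbp2, which encodes a poly(C)-binding protein. The elements of the Tra2b, Srsf3 and Pcbp2 genes are called here by their host gene. Rat elements were assumed to keep their catalogue numbers. No source used here gives the position or strand of an element against its host gene. Whether a plus-strand probe reads the host transcript was thus not tested, here or for other elements named by a host gene. All 5 plus-strand probes were detected on all 15 arrays. From the cervical loop to the secretory stage 1 of the 5 rose and 4 fell, from the secretory stage to maturation 0 rose and 2 fell, and from the cervical loop to maturation 0 rose and 4 fell. Of all features 21.4% rose and 36.7% fell in the first comparison, 25.1% and 34.4% in the second and 20.6% and 42.7% in the third. The median log2 differences of the 5 elements were -0.75, -0.41 and -1.21, against -0.19, -0.12 and -0.28 over all features tested. Differences and adjusted p-values are from limma, with Benjamini-Hochberg adjustment over all features and a threshold of 0.05.

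The probe of the Tra2b element, which lies at an exon that marks the transcript for decay, was highest in the secretory stage. Its normalized signals on replicates 1 to 5 were 0.37, -0.52, 0.38, 0.95 and 1.08 in the cervical loop, 1.0, 1.33, 1.94, 1.88 and 1.64 in the secretory stage and 0.35, 0.40, 0.54, 0.37 and 0.31 in maturation. The secretory arrays overlapped the cervical loop arrays at 1.0 and 1.08 and lay above every maturation array. The log2 difference was 1.10 (SE 0.25, adjusted p = 0.00155) for the secretory stage against the cervical loop, and -1.16 (SE 0.25, adjusted p = 0.00104) for maturation against the secretory stage. With the scan as a fixed block in the fit the latter was -1.12 and no longer passed (adjusted p = 0.0959).

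The other 4 went the opposite way, with their highest means in the cervical loop. For the Pcbp2 element the arrays measured -2.78, -3.58, -3.65, -3.37 and -3.86 in the cervical loop, -4.67, -4.65, -5.10, -4.85 and -4.51 in the secretory stage and -5.28, -5.04, -5.29, -5.23 and -5.0 in maturation. No cervical loop array overlapped those of either later stage. The log2 difference to the secretory stage was -1.31 (SE 0.18, adjusted p = 1.53e-05) and that from the secretory stage to maturation -0.41 (SE 0.18, adjusted p = 0.0563). The latter passed with replicate number as a block over these 2 stages (adjusted p = 0.00761), a fit added after the data were seen. With the scan as a fixed block it did not pass. The Srsf11 element uc.28+ fell at both steps, with log2 differences of -0.75 (SE 0.19, adjusted p = 0.00284) and -0.77 (SE 0.19, adjusted p = 0.00231), from a cervical loop mean of -3.07 ± 0.45 (SD, n = 5) to a maturation mean of -4.59 ± 0.14 (SD, n = 5). With scan blocks the second of these was -0.45 (adjusted p = 0.314). With the normexp background model, another way to correct spots for background, the first was -0.11 (adjusted p = 0.448), and for the Pcbp2 element it was -0.16 (adjusted p = 0.252).

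The Srsf3 element and the Ptbp2 element uc.33+ changed less surely. The arrays of the Srsf3 element measured -1.86, -2.40, -2.43, -3.84 and -2.23 in the cervical loop, -3.25, -3.39, -3.15, -4.36 and -3.04 in the secretory stage and -3.63, -4.35, -3.48, -3.65 and -3.69 in maturation. In each stage 1 array lay well below the other 4, and cervical loop replicate 4 lay within the range of the later stages. The difference was -0.89 (SE 0.32, adjusted p = 0.0273) for the secretory stage and -1.21 (SE 0.32, adjusted p = 0.00414) for maturation, both against the cervical loop. Without 1 array at a time the secretory difference ran from -1.21 to -0.66 with an adjusted p of up to 0.0802. For uc.33+ the secretory difference was -0.58 (SE 0.23, adjusted p = 0.0401), and it ran from -0.67 to -0.37 with an adjusted p of up to 0.110 in the same runs. With quantile normalization neither passed, at -0.70 (adjusted p = 0.101) and -0.39 (adjusted p = 0.155), and the maturation difference of the Srsf3 element was -0.76 (adjusted p = 0.0783).

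**Figure D2:**
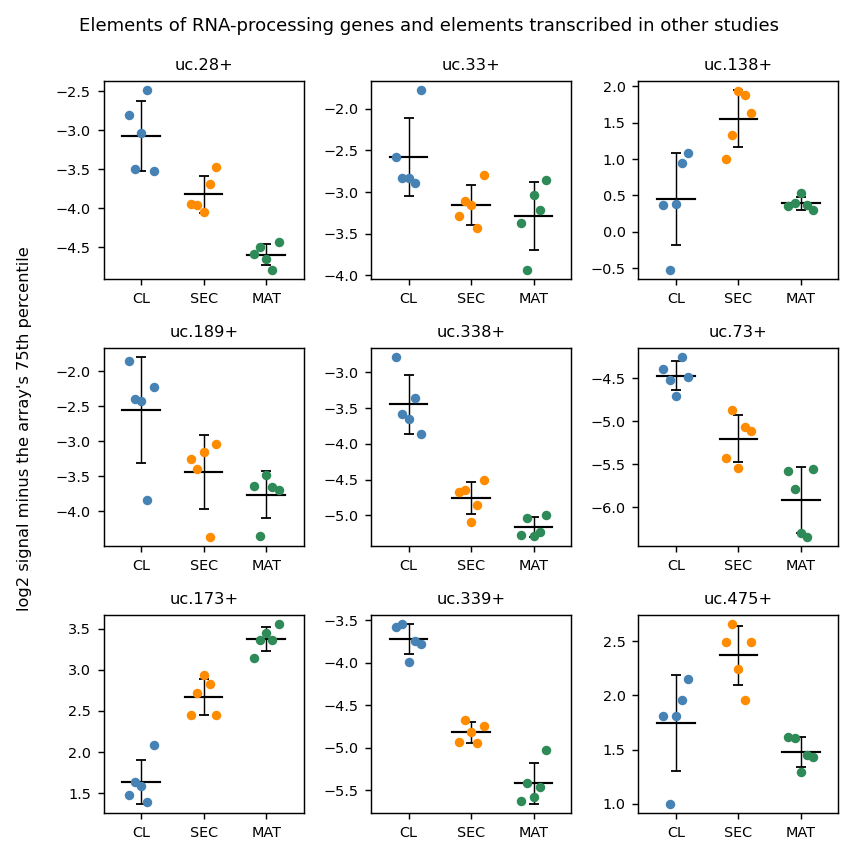
Normalized log2 signal (y axis) of 9 plus-strand probes on the arrays of the cervical loop (CL), secretory stage (SEC) and maturation stage (MAT), 1 point per array in order of replicate, with mean and SD of 5 arrays in black; each panel has its own scale. The first 5 panels are the elements of RNA-processing genes, where the Tra2b element in the third panel peaks in SEC and the others are highest in CL, and the last 4 are elements transcribed in other studies, of which the second has its highest arrays in MAT.

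Of 15 elements known as transcribed from other studies, 8 were detected here on at least 1 array by their plus-strand probe. The other 7, among them uc.8+, uc.63+ and uc.160+, were detected on 0 arrays, which is 46.7% of this list against 43.0% of all members. Of the 8, 3 (among them uc.110+) were detected on some arrays but not on all 5 of a stage. The 5 that were tested were uc.73+, the element next before uc.174+, the Pcbp2 element, the element next after it, and an element of Ogt, and 4 of them were detected on all 15 arrays. Into the secretory stage 2 of the 5 rose and 3 fell, with a median log2 difference of -0.73. From the secretory stage to maturation 1 rose and 3 fell, with a median of -0.60, and from the cervical loop to maturation 1 rose and 3 fell, with a median of -1.44. Over all features 21.4%, 25.1% and 20.6% rose and 36.7%, 34.4% and 42.7% fell in these comparisons, and the medians were -0.19, -0.12 and -0.28.

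The element next before uc.174+ by number, whose transcript has been described as promoting renewal of the intestinal epithelium, rose step by step. Its arrays measured 1.48, 1.64, 1.59, 1.39 and 2.09 in the cervical loop, 2.45, 2.71, 2.93, 2.82 and 2.45 in the secretory stage and 3.15, 3.36, 3.45, 3.36 and 3.56 in maturation. The 3 stages did not overlap. The log2 difference was 1.03 (SE 0.15, adjusted p = 2.46e-05) into the secretory stage and 0.70 (SE 0.15, adjusted p = 7.30e-04) from there into maturation, and maturation stood 3.33-fold above the cervical loop. It also passed after quantile normalization, under the normexp background model and with the scan as a block, where the maturation step was 0.86 (adjusted p = 0.0193).

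Another element overlaps Ogt, the gene of the O-GlcNAc transferase that modifies nuclear and cytosolic proteins. Its plus-strand probe measured 1.81, 1.0, 1.81, 1.96 and 2.15 in the cervical loop, 2.49, 2.66, 2.24, 1.96 and 2.49 in the secretory stage and 1.62, 1.60, 1.29, 1.45 and 1.43 in maturation. The secretory arrays reached down into the cervical loop range and lay above every maturation array. The difference was 0.62 (SE 0.19, adjusted p = 0.0105) into the secretory stage and -0.89 (SE 0.19, adjusted p = 8.58e-04) from there into maturation. The element next after that of Pcbp2, known from lung tumours, fell at both steps, with stage means of -3.73, -4.82 and -5.42 and a log2 difference of -1.69 (SE 0.13, adjusted p = 4.36e-08) between maturation and the cervical loop. With the scan as a fixed block its step from the secretory stage to maturation did not pass. The element uc.73, known from colorectal tumours, had means of -4.47, -5.21 and -5.92 and a difference of -1.44 (SE 0.18, adjusted p = 5.35e-06) over the same span.

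In the first step, from the cervical loop, 36 of the 193 tested members were higher in the secretory stage and 86 lower. Over all 28844 features 21.4% were higher and 36.7% lower, and 58.1% passed in either direction, so the 122 called members, 63.2%, stood near the share of the whole array. The median log2 difference of the members was -0.27, against -0.19 over all features. A fold of at least 2 was measured for 17 higher members, where the array had 8.86%, and for 34 lower ones, where the array had 15.4%. Using lower bounds for probes detected on 0 arrays of the dimmer stage leaves 15 and 26. The 2 groups of arrays did not overlap for 74 called members, 38.3% of those tested, against 38.6% of all features. The lower counts include the 35 members that passed the filter through the cervical loop alone, for which they are partly fixed.

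The split between higher and lower members followed the scaling. Quantile normalization gave 64 higher and 53 lower members, median scaling 53 and 61, and the normexp background model 70 and 11. The shares of all features, higher and lower, were 26.3% and 30.9% in the first of these settings, 29.6% and 25.4% in the second and 27.3% and 20.7% in the third. The median of all features moved as well, from -0.19 to -0.07, 0.03 and 0.08, and the members' median minus that of all features was -0.08 as processed here, 0.06, -0.08 and 0.10 in these settings. Among the 125 members detected on all 15 arrays 28 were higher and 45 lower, against 23.5% and 33.4% of all features so detected. The side of the array's median on which the members' median fell thus changed with the scaling.

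The largest increase was that of uc.277+. Its normalized signals on replicates 1 to 5 were -2.99, -4.76, -0.58, -4.11 and -4.38 in the cervical loop, 0.83, 1.49, 1.29, 1.26 and 1.84 in the secretory stage and -3.37, -3.49, -3.25, -3.33 and -2.55 in maturation. Every secretory array lay above every array of the other stages, and cervical loop replicate 3 lay far above the other cervical loop arrays. The secretory stage stood 26.1-fold above the cervical loop, a log2 difference of 4.71 (SE 0.57, adjusted p = 5.21e-06), and 23.3-fold above maturation, a difference of -4.54 (SE 0.57, adjusted p = 6.93e-06). Without cervical loop replicate 3 the first difference was 5.40, and maturation then stood above the cervical loop by 0.86 (adjusted p = 0.0240), where with all arrays the difference was 0.17 (adjusted p = 0.812).

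The probe of uc.428+ was next. It measured -0.70, -3.21, 1.76, 0.0033 and 0.58 in the cervical loop, 3.26, 3.67, 4.16, 3.39 and 3.42 in the secretory stage and 0.029, -0.037, -0.14, 0.22 and 0.26 in maturation. The secretory arrays lay above all others, and the cervical loop arrays spread widely, with replicate 3 highest and replicate 2 lowest. The secretory stage was higher by 3.90 (SE 0.61, adjusted p = 6.06e-05) on the log2 scale, or 4.41 without cervical loop replicate 3 and 3.17 without replicate 2. The step to maturation was -3.51 (SE 0.61, adjusted p = 1.53e-04).

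The third member of this kind was uc.363+, with signals of -7.18, -6.31, -3.47, -6.32 and -6.42 in the cervical loop, -3.45, -3.06, -2.34, -1.58 and -1.20 in the secretory stage and -6.43, -6.59, -5.11, -5.80 and -5.26 in maturation. It was detected on 1 cervical loop array, on all 5 secretory arrays and on 3 maturation arrays, so it passed the filter through the secretory stage alone. Cervical loop replicate 3 was the array on which it reached nearly the lowest secretory value. The difference was 3.61 (SE 0.59, adjusted p = 9.31e-05) into the secretory stage and -3.51 (SE 0.59, adjusted p = 1.18e-04) out of it.

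Cervical loop replicate 3 was thus the highest cervical loop array for uc.277+, uc.428+, uc.363+, uc.184+ and uc.468+, as it was for the other features of the secretory stage. For uc.117+, uc.239+, uc.335+ and the Tra2b element another array was highest. All 9 members that were highest in the secretory stage remained so without it. The part of the tissue on that array in these spreads was not tested.

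In 6 further members the secretory stage was 2-fold or more above each of the others. The probe of uc.117+ was the most even among replicates, with -2.99, -2.87, -2.99, -3.19 and -3.09 in the cervical loop, -1.62, -1.68, -1.92, -1.38 and -1.19 in the secretory stage and -3.36, -3.21, -3.28, -3.49 and -2.93 in maturation. No secretory array overlapped another stage, and the other stages differed by -0.23 (adjusted p = 0.183). The secretory differences were 1.47 (SE 0.15, adjusted p = 6.64e-07) from the cervical loop and -1.70 (SE 0.15, adjusted p = 1.14e-07) to maturation. The minus-strand probe of the same element went another way: its means were -3.48, -5.83 and -6.27, and the secretory stage differed from the cervical loop by -2.35 (SE 0.24, adjusted p = 8.19e-07).

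The probe of uc.468+ was measured at -5.42, -6.08, -5.15, -5.49 and -5.39 in the cervical loop, -3.92, -3.81, -4.32, -3.69 and -3.59 in the secretory stage and -7.25, -7.19, -7.24, -7.47 and -6.50 in maturation. It was detected on 4 cervical loop, 5 secretory and 0 maturation arrays, so it passed the filter through the secretory stage alone. The 3 stages did not overlap. The secretory stage was higher than the cervical loop by 1.64 (SE 0.20, adjusted p = 6.33e-06) and at least 5.79-fold higher than maturation (adjusted p = 3.40e-09). Such lower bounds set the brighter stage's mean against a floor on each array of the dimmer stage: the dimmest signal that was still well above background there, or the probe's own signal where that was higher. An adjusted p beside such a bound is that of the measured log2 difference in limma, here -3.26, and not a test of the bound.

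The probes of uc.184+ and uc.185+ both rose into the secretory stage. For uc.184+ the arrays measured -3.20, -2.89, -1.61, -3.89 and -2.34 in the cervical loop, -0.50, -0.37, -0.76, -1.24 and 0.042 in the secretory stage and -1.56, -1.74, -1.60, -1.74 and -1.50 in maturation. The secretory arrays lay above those of both other stages. It was higher than the cervical loop by 2.22 (SE 0.33, adjusted p = 3.44e-05) and higher than maturation, where the difference was -1.06 (SE 0.33, adjusted p = 0.0109), or -0.95 with scan blocks (adjusted p = 0.329). For uc.185+, the next element by number, the means were -5.39, -3.48 and -4.47, with a difference of 1.91 (SE 0.23, adjusted p = 4.45e-06) into the secretory stage. The element after that, uc.186+, had means of -4.02, -2.80 and -3.55 and a difference of 1.22 (SE 0.37, adjusted p = 0.0105). The minus-strand probe of uc.184 was detected on 0 arrays.

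The probes of uc.239+ and uc.335+ completed the group together with the Tra2b element. For uc.239+ the means were -5.54 ± 1.06 (SD, n = 5), -2.79 ± 0.54 (SD, n = 5) and -4.37 ± 0.50 (SD, n = 5), and it was detected on 3, 5 and 5 arrays. Its difference was 2.75 (SE 0.42, adjusted p = 4.88e-05) into the secretory stage and -1.58 (SE 0.42, adjusted p = 0.00431) out of it, the latter -1.29 with scan blocks (adjusted p = 0.306). For uc.335+ the arrays measured -1.35, -1.27, -1.93, -1.81 and -1.60 in the cervical loop, 0.13, -1.50, 0.16, 0.75 and 1.37 in the secretory stage and -1.86, -2.77, -2.23, -1.85 and -0.85 in maturation. Secretory replicate 2 and maturation replicate 5 lay inside the range of the other stages. The difference was 1.77 (SE 0.43, adjusted p = 0.00215) into the secretory stage and -2.09 (SE 0.43, adjusted p = 5.92e-04) out of it, and with the scan as a block the latter was -0.44 (adjusted p = 0.635).

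The 9 members made up 4.66% of those tested, and 5.22% of all features were highest in the secretory stage by the same rule. The rule is a fold of at least 2 and an adjusted p under 0.05 against both other stages. By it 8 of the 9 remained after quantile normalization, 7 after median scaling and 4 with the normexp background model.

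**Figure D3:**
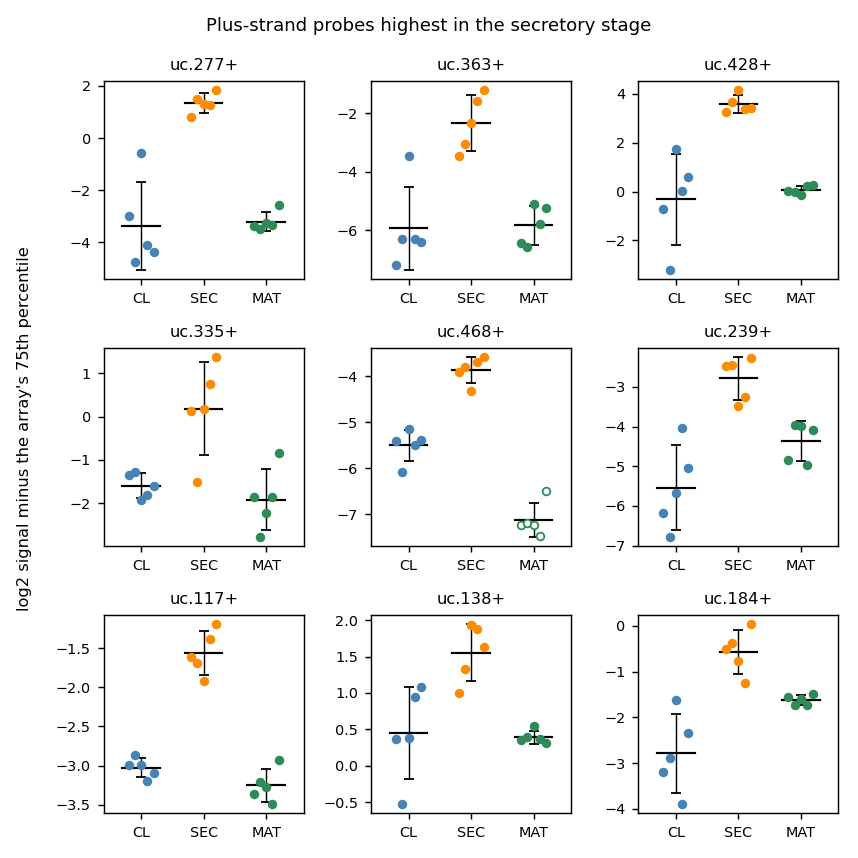
Normalized log2 signal (y axis) of the 9 plus-strand probes that were highest in the secretory stage (SEC), beside the cervical loop (CL) and maturation (MAT); 1 point per array in order of replicate, black lines for mean and SD of 5 arrays, open points where a stage had 0 arrays well above background, and a separate scale in each panel. For uc.277+, uc.428+ and uc.363+ the third CL point is the highest of its stage, and for uc.117+ the CL and MAT points lie close together below SEC.

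The largest decreases into the secretory stage were those of probes near background there. The probe of uc.337+ was detected on 5 cervical loop arrays and on 0 of the others, so it passed the filter through the cervical loop alone. It measured -3.27, -2.88, -4.13, -5.17 and -3.88 in the cervical loop, -7.09, -7.98, -7.66, -7.61 and -7.59 in the secretory stage and -6.24, -6.65, -7.49, -6.75 and -7.27 in maturation. No cervical loop array overlapped the other stages. The cervical loop was at least 3.61-fold higher than the secretory stage (adjusted p = 3.83e-07) and at least 5.53-fold higher than maturation (adjusted p = 2.50e-06). The measured cervical loop mean was -3.87 ± 0.88 (SD, n = 5) and the secretory one -7.59 ± 0.32 (SD, n = 5).

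The largest decrease among probes detected on all 15 arrays was that of uc.461+. It measured -1.96, -3.61, -2.75, -2.12 and -2.74 in the cervical loop, -4.77, -4.41, -4.41, -4.39 and -4.36 in the secretory stage and -4.44, -4.74, -4.81, -4.72 and -4.57 in maturation. The cervical loop arrays lay above all others, while the secretory and maturation arrays overlapped. The cervical loop was 3.56-fold above the secretory stage, a log2 difference of -1.83 (SE 0.24, adjusted p = 9.36e-06), and the step from there to maturation was -0.19 (SE 0.24, adjusted p = 0.507).

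The probes of uc.247+, uc.350+, uc.81+, uc.324+, uc.228+ and uc.94+ were the others with the largest decreases. The cervical loop was at least 4.44-fold higher than the secretory stage for uc.247+, at least 2.17-fold for uc.350+, at least 1.63-fold for uc.324+ and at least 1.15-fold for uc.81+. For uc.228+ the difference was -1.69 (SE 0.15, adjusted p = 2.18e-07), and for uc.94+ it was -1.65 (SE 0.26, adjusted p = 5.85e-05), with 3 and 1 secretory arrays detected. With the normexp background model the differences of uc.350+, uc.81+ and uc.324+ were above 0, at 0.018, 0.16 and 0.11. In the same setting uc.337+ (adjusted p = 0.0662), uc.247+ (adjusted p = 0.110), uc.228+ (adjusted p = 0.367) and uc.94+ (adjusted p = 0.984) did not pass.

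In 30 of the 193 tested members, 15.5%, the cervical loop was 2-fold or more above each later stage, against 9.4% of all features tested. Counting a fold only where it was measured or bounded at 2 or more leaves 22 of these 30. They were dim probes: 7 were detected on all 15 arrays, and 8 on 0 arrays of the later stages. Since 35 members entered the test through the cervical loop alone, this share is partly fixed by the filter. With quantile normalization 12 of the 30 remained, with median scaling 20, and with the normexp background model 0. The 8 with the largest margin were uc.337+, uc.247+, uc.350+, uc.81+, uc.461+, uc.228+, uc.94+ and uc.51+. For uc.51+ the cervical loop arrays lay at -4.74 to -4.33, the secretory arrays at -6.65 to -5.57 and the maturation arrays at -7.45 to -6.14, without overlap between the first and the others.

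From the secretory stage to maturation, 18 of the 193 tested members rose and 110 fell. Over all features 25.1% rose and 34.4% fell, and 59.5% passed in either direction, against 66.3% of the members. The members' median log2 difference was -0.56, against -0.12 over all features. A fold of at least 2 was measured for 7 members that rose, where the array had 10.1%, and for 32 that fell, where the array had 12.4%. With lower bounds in place of measured folds where a stage had 0 arrays detected, these were 5 and 27. The arrays of the stages did not overlap for 83 called members, 43.0% of those tested, against 44.6% of all features.

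More members fell than rose under each scaling tried. The counts were 20 and 75 after quantile normalization, 24 and 81 after median scaling, and 8 and 153 with the normexp background model. Over all features 26.8% rose and 27.7% fell in the first of these settings, 33.3% and 24.3% in the second and 20.6% and 46.3% in the third. The members' median minus that of all features was -0.44 as processed here, -0.26 with quantile normalization, -0.44 with median scaling and -0.16 with the normexp background model. Among the 125 members detected on all 15 arrays 11 rose and 72 fell, against 26.7% and 34.8% of all features so detected. The minus-strand probes of the same elements moved likewise, with 13 higher and 97 lower of 198 tested.

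The scan was taken into account in both ways the design allows. With the scan as a random block 112 members passed, 13 higher and 99 lower, against 23.3% and 32.1% of all features. With the scan as a fixed block, called the scan as a block here, 24 members passed, 8 higher (4.15%) and 16 lower (8.29%), against 9.5% and 10.7% of all features. Of the 24 members 22 were also among the 128, and the members' median was -0.22 against -0.07 over all features. This fit compares the stages within scan 2, which held 3 secretory arrays and maturation replicate 5. Of the 128 members 119 kept their sign in it. On the arrays' other features, maturation replicate 5 was also the maturation array closest to the secretory stage, with a median of -2.05 over the features highest in that stage against -2.43 to -2.32 for the others. With stages taken from the titles, 0 members and 0 of all features passed in limma.

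The members that passed with the scan as a block included uc.277+ at -3.75 (adjusted p = 0.0287), uc.468+ at -2.48 (adjusted p = 1.99e-04) and uc.117+ at -1.19 (adjusted p = 0.00164) among those that fell. For uc.428+ and uc.363+ the differences were -3.44 (adjusted p = 0.0623) and -2.31 (adjusted p = 0.142). Among those that rose, uc.217+, uc.176+, uc.129+ and uc.121+ passed.

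Among members detected on all 5 secretory arrays and not highest in that stage, uc.25+ and uc.83+ fell most. A larger measured decrease was that of uc.482+, detected on 4 secretory and 0 maturation arrays, which was at least 2.56-fold lower in maturation (adjusted p = 2.41e-06). The probe of uc.25+ measured -3.20, -3.44, -3.56, -3.36 and -3.17 in the cervical loop, -4.17, -3.82, -3.79, -4.23 and -3.33 in the secretory stage and -5.64, -5.50, -5.84, -5.76 and -4.80 in maturation. The maturation arrays lay below all others. The difference was -1.64 (SE 0.20, adjusted p = 5.35e-06) from the secretory stage, where the step before it had been -0.52 (SE 0.20, adjusted p = 0.0353). For uc.83+ the means were -3.60 ± 0.13 (SD, n = 5), -4.06 ± 0.31 (SD, n = 5) and -5.49 ± 0.27 (SD, n = 5), and the difference was -1.44 (SE 0.16, adjusted p = 2.19e-06). With the scan as a block these differences were -0.88 (adjusted p = 0.0564) for uc.25+, which did not pass, and -0.89 (adjusted p = 0.0247) for uc.83+, which did. The earlier step of uc.25+ did not pass with quantile normalization, at -0.24 (adjusted p = 0.198).

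The largest rise into maturation was that of uc.217+. It was detected on 0 cervical loop, 0 secretory and 5 maturation arrays, so it passed the filter through maturation alone. It measured -6.60, -5.58, -6.83, -7.91 and -7.62 in the cervical loop, -6.42, -8.06, -7.34, -7.03 and -7.47 in the secretory stage and -3.87, -4.60, -4.35, -4.28 and -4.13 in maturation. All maturation arrays lay above every other array. Maturation was at least 2.76-fold higher than the secretory stage (adjusted p = 5.44e-06) and at least 3.76-fold higher than the cervical loop (adjusted p = 1.54e-05). With the normexp background model the first difference was 0.082 (adjusted p = 0.556).

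The probe of uc.176+ was also detected on the 5 maturation arrays alone and passed the filter through them. It measured -8.23, -7.91, -8.04, -8.28 and -8.27 in the cervical loop, -7.91, -7.14, -6.19, -6.63 and -5.92 in the secretory stage and -4.87, -4.85, -5.26, -4.77 and -4.51 in maturation, and no maturation array overlapped another stage. Maturation was at least 1.82-fold higher than the secretory stage (adjusted p = 3.81e-05) and at least 2.52-fold higher than the cervical loop. With the normexp background model the first difference was -0.088 (adjusted p = 0.507). For uc.287+, detected on 0, 1 and 5 arrays, the means were -7.83 ± 0.53 (SD, n = 5), -6.49 ± 0.80 (SD, n = 5) and -4.72 ± 0.62 (SD, n = 5), and maturation was at least 2.76-fold higher than the cervical loop (adjusted p = 3.46e-06). Its minus-strand probe fell, with means of -4.03, -4.85 and -5.72 and a difference of -1.69 (SE 0.25, adjusted p = 3.34e-05) between maturation and the cervical loop.

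The clearest rise among probes detected on all 15 arrays was that of uc.121+. It measured -3.84, -4.77, -4.36, -4.25 and -4.20 in the cervical loop, -4.51, -4.45, -4.27, -4.19 and -4.15 in the secretory stage and -2.84, -2.89, -2.93, -3.04 and -2.93 in maturation. The maturation arrays lay close together and above all others. Maturation was 2.62-fold above the secretory stage, a difference of 1.39 (SE 0.15, adjusted p = 1.17e-06), and the cervical loop and secretory stage differed by -0.030 with an adjusted p of 0.871 and a 95% interval of -0.34 to 0.28. The difference to the secretory stage was 1.55 with quantile normalization and 1.48 in the fit with scan blocks (adjusted p = 0.00304), but 0.32 with the normexp background model (adjusted p = 0.00959).

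These 4 members, uc.217+, uc.176+, uc.287+ and uc.121+, were the ones at least 2-fold above both other stages in maturation. They made up 2.07% of the tested members, against 4.66% of all features. Since uc.217+, uc.176+ and uc.287+ passed the filter through maturation alone, this share is partly fixed by the filter. With bounds in place of measured folds 3 of the 4 are left. These 4 and 1 other were found after quantile normalization as well as after median scaling, and 0 with the normexp background model.

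Dips in the secretory stage were seen for uc.129+, uc.324+ and uc.246+. For uc.129+ the arrays measured -3.77, -5.02, -4.44, -4.45 and -4.15 in the cervical loop, -6.14, -5.91, -6.23, -5.86 and -5.79 in the secretory stage and -4.48, -4.78, -4.68, -4.57 and -4.35 in maturation, and it was detected on 1 secretory array. The secretory arrays lay below all others. The log2 difference into the secretory stage was -1.62 (SE 0.19, adjusted p = 3.24e-06) and that into maturation 1.42 (SE 0.19, adjusted p = 1.18e-05). With the normexp background model neither passed, at 0.0016 (adjusted p = 0.991) and -0.074 (adjusted p = 0.516). The probe of uc.324+, detected on 5, 0 and 5 arrays, also rose into maturation (adjusted p = 7.36e-04), but its lower bound came to no fold above 1. For uc.246+ the rise was 0.70 (SE 0.21, adjusted p = 0.00860). For uc.403+, detected on 5, 4 and 5 arrays, the rise was 1.36 (SE 0.20, adjusted p = 3.80e-05). Under that model the values were -0.26 (adjusted p = 0.0322) for uc.324+, 0.053 (adjusted p = 0.655) for uc.246+ and 0.077 (adjusted p = 0.587) for uc.403+. With the scan as a block neither uc.324+ (adjusted p = 0.130) nor uc.246+ (adjusted p = 0.380) passed.

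**Figure D4:**
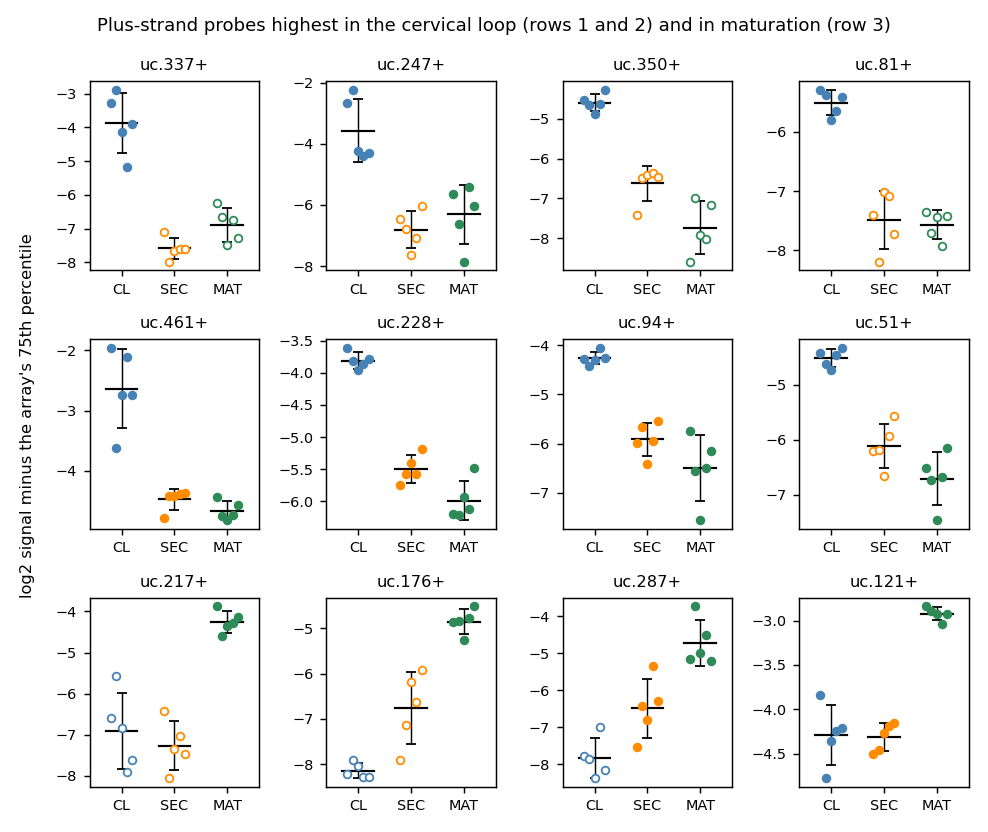
Normalized log2 signal (y axis) of the 8 plus-strand probes with the largest margin in the cervical loop (CL) in the upper 2 rows, and of the 4 highest in maturation (MAT) in the third row, with SEC for the secretory stage; 1 point per array in order of replicate, mean and SD of 5 arrays in black, open points where a stage had 0 arrays well above background, separate scales. Filled points in a single stage mark uc.337+, uc.350+ and uc.81+ in CL and uc.217+ and uc.176+ in MAT, while uc.461+ and uc.121+ are filled throughout.

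Over the whole span from the cervical loop to maturation, 16 of the 193 tested members were higher in maturation and 122 lower. Over all features 20.6% were higher and 42.7% lower, and 63.3% passed in either direction, against 71.5% of the members. The median log2 difference of the members was -0.71, against -0.28 over all features. A fold of at least 2 was measured for 8 higher members, where the array had 8.27%, and for 71 lower ones, where the array had 20.1%; with bounds these were 8 and 69. The arrays did not overlap for 105 of the members called, 54.4% of those tested, against 44.6% of all features. For the 35 members that passed the filter through the cervical loop alone, a lower signal in maturation is partly fixed by the filter. The lower counts, the median and the share without overlap include them.

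Here too the lower members outnumbered the higher ones under each scaling. The counts were 36 higher and 68 lower after quantile normalization, 37 and 82 after median scaling, and 12 and 73 with the normexp background model. Of all features 25.1% were higher and 29.8% lower in the first of these settings, 37.4% and 23.2% in the second and 19.4% and 33.5% in the third. The members' median minus that of all features was -0.43, -0.11, -0.43 and -0.05 in the processing used here and these 3 settings. Among members detected on all 15 arrays 9 were higher and 69 lower, against 22.5% and 39.1% of all features so detected. Scan day separates these stages completely.

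Among the members lower in maturation were several not yet named. The probe of uc.61+, detected on the cervical loop arrays only, was at least 3.18-fold lower in maturation (adjusted p = 2.36e-09). The bounds were 2.68-fold for uc.158+, 2.55-fold for uc.221+ and 3.26-fold for uc.482+, which was still detected on 4 secretory arrays. The filter took uc.61+, uc.158+ and uc.221+ through the cervical loop alone. For uc.390+, detected on 3 maturation arrays, the arrays measured -2.91, -4.36, -2.99, -2.74 and -2.81 in the cervical loop, -4.52, -4.93, -4.51, -4.50 and -4.92 in the secretory stage and -5.41, -6.43, -5.86, -5.69 and -5.82 in maturation. The cervical loop arrays lay above the others, with replicate 2 nearest to them, and the difference was -2.68 (SE 0.27, adjusted p = 6.04e-07).

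Among the members higher in maturation than in the cervical loop was uc.420+, with 2.29, 2.07, 2.16, 2.17 and 2.66 in the cervical loop, 1.98, 2.62, 3.35, 3.40 and 2.90 in the secretory stage and 3.26, 3.43, 3.50, 3.39 and 3.28 in maturation. The maturation arrays lay above the cervical loop arrays, and the secretory arrays overlapped both. The difference was 1.10 (SE 0.22, adjusted p = 4.13e-04). Behind it stood uc.70+, detected on 4, 5 and 5 arrays, with a difference of 0.85 (SE 0.27, adjusted p = 0.0125) and means of -5.12, -4.83 and -4.26. The difference of uc.70+ was 0.23 with the normexp background model (adjusted p = 0.102).

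**Figure D5:**
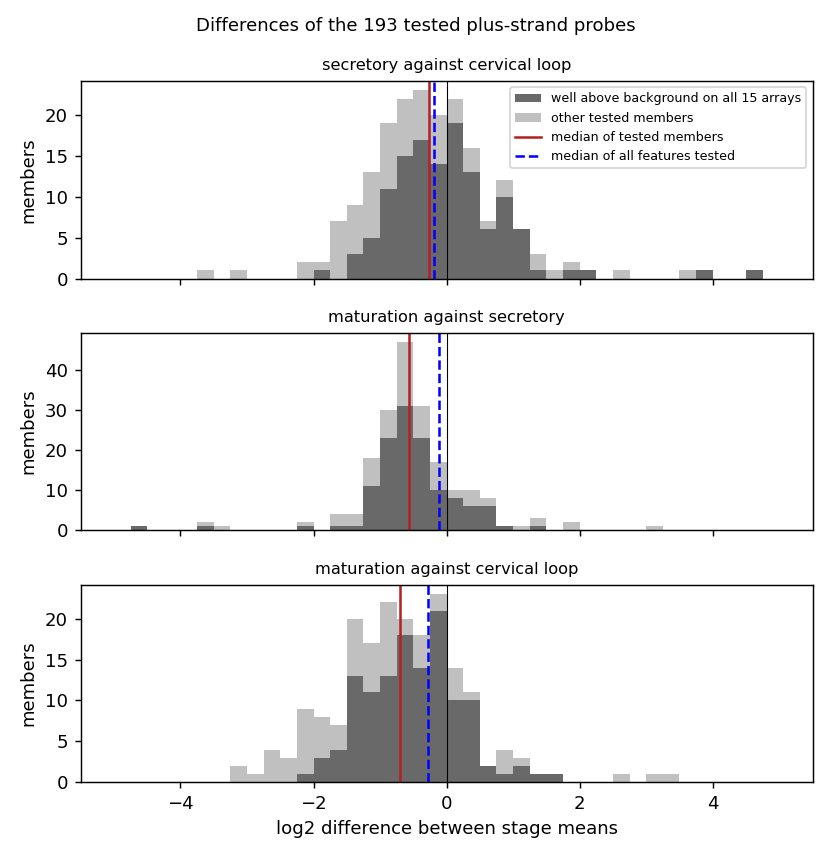
Log2 differences between stage means (x axis, bins of 0.25) and the number of tested members in each bin (y axis) for the 3 comparisons, with members detected on all 15 arrays in dark grey and the other tested members in light grey. The red line is the members' median, at -0.27, -0.56 and -0.71 from top to bottom, and the blue dashed line that of all features, at -0.19, -0.12 and -0.28.

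The 10 probes with the highest mean normalized signal are the ones measured farthest above background. They were uc.471+, uc.154+, uc.420+, the element next before uc.482+, the element next before uc.174+, the Ogt element, uc.37+, uc.456+, uc.243+ and uc.174+. For 4 of them the F test over the 3 stages did not pass. These were uc.471+, with means of 3.42, 3.36 and 3.70, the element next before uc.482+ with 2.48, 2.71 and 2.73, uc.174+ with 1.28, 1.03 and 1.27, and uc.243+ with 0.78, 1.85 and 1.03. For uc.243+ the secretory stage against the cervical loop did pass as a single comparison in limma. Without 1 array at a time this difference ran from 0.76 to 1.43 and failed in 6 of the runs (adjusted p of up to 0.0903). For uc.471+ the 95% intervals of the log2 differences were -0.45 to 0.32 for the secretory stage against the cervical loop and -0.041 to 0.73 for maturation against the secretory stage.

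Over all tested members the F test passed for 168 of 193, against 83.0% of all features. Of the bright probes that changed, uc.154+ measured 2.78, 2.62, 3.02, 2.77 and 3.50 in the cervical loop, 3.0, 3.17, 3.08, 2.61 and 3.27 in the secretory stage and 3.61, 3.69, 3.90, 3.74 and 3.52 in maturation. All maturation arrays lay above those of the cervical loop and of the secretory stage. Maturation was higher than the secretory stage by 0.66 (SE 0.17, adjusted p = 0.00294), or 0.43 in the fit with scan blocks (adjusted p = 0.245), and the secretory stage differed from the cervical loop by 0.093 (adjusted p = 0.650). For uc.456+ the means were 1.15 ± 0.36 (SD, n = 5), 1.90 ± 0.34 (SD, n = 5) and 0.65 ± 0.089 (SD, n = 5), with a rise of 0.76 (SE 0.18, adjusted p = 0.00218) and then a difference of -1.25 (SE 0.18, adjusted p = 3.04e-05), which was -1.42 in the fit with scan blocks (adjusted p = 0.00413). For uc.37+ the rise into the secretory stage was 0.77 (SE 0.21, adjusted p = 0.00500), or 0.36 in the deposited series table (adjusted p = 0.450).

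The 2 strands of an element often did not pass the filter together. Both probes were tested for 104 elements, the plus-strand probe alone for 89, the minus-strand probe alone for 94, and neither for 194. Over the 15 arrays the correlation of the strands of an element had a median of 0.42 and ran from -0.72 for uc.287 to 0.95. Points in these correlations share arrays and stages, and the values are descriptions. Of the 104 elements, both strands were called in the same direction for 25 and in opposite directions for 13 in the secretory stage against the cervical loop. The plus strand alone was called for 28 and the minus strand alone for 26. In the same order the numbers were 28, 7, 32 and 14 for maturation against the secretory stage. For maturation against the cervical loop they were 35, 7, 24 and 21. Over all features 58.1%, 59.5% and 63.3% were called in these comparisons.

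Some members changed while their partner strand went the other way. For uc.423+ the means were -4.25, -5.62 and -6.58, a difference of -2.33 (SE 0.24, adjusted p = 6.27e-07) between maturation and the cervical loop, while that of uc.423- was 1.10 (SE 0.23, adjusted p = 6.09e-04). For uc.350 the same span gave a plus strand at least 3.54-fold lower and a minus strand with a difference of 1.26 (SE 0.29, adjusted p = 0.00153). For uc.251 the plus strand was at least 2.21-fold lower in the secretory stage than in the cervical loop, while the minus-strand difference was 0.74 (SE 0.20, adjusted p = 0.00568); with the normexp background model the plus strand was at 0.075 (adjusted p = 0.599). For the Tra2b element the secretory rise of the plus strand stood beside a difference of -0.48 (SE 0.18, adjusted p = 0.0287) on the minus strand. The plus-strand probe uc.277+ had a partner detected on 0 arrays.

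Elements with neighbouring numbers lie near each other in the genome where they belong to 1 cluster. Of the tested members 75 pairs had adjacent numbers. Their correlation over the 15 arrays had a median of 0.39, against 0.31 over all 18528 pairs of tested members, and 13 of the 75, 17.3%, were over 0.8, against 12.8% of all pairs. Among them were the Pcbp2 element with its next neighbour at 0.95, that neighbour with uc.340+ at 0.96, and uc.184+ with uc.185+ at 0.92. The Pcbp2 element, its next neighbour and uc.340+ fell over the whole span, with log2 differences of -1.72 (SE 0.18, adjusted p = 7.61e-07), -1.69 (SE 0.13, adjusted p = 4.36e-08) and -1.48 (SE 0.12, adjusted p = 5.73e-08). These correlations include the differences between stages and share the arrays, and no test was made of them.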

How the data were processed

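One-colour arrays of 15 total RNA samples were used. RNA came from a miRNeasy kit and was amplified and labelled with Cy3, per the labels' protocols. Agilent Feature Extraction 11.0.1.1 read the images, per the submitters' processing notes. The scanner files give linear intensity per spot, per the file headers: a processed signal after background correction, a median signal with its local background, and flags. A deposited series table has log2 values for 480 of the 481 members, and no source used here gives how it was normalized.

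Control spots and spots marked uneven or as outliers were left out, 107 to 276 of 41623 spots per array, and 0 spots were saturated. Spots of a probe were averaged, and log2 of the processed signal minus the 75th percentile of the array was analysed. Between 67.4% and 78.9% of spots per array were well above background. Of the members 9 lacked a value on an array, and 0 of those tested did. Depth is not defined for arrays, and their number limits the precision.

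Features detected on all 5 arrays of at least 1 stage were fitted over the 15 arrays without a block by lmFit and eBayes (limma 3.58.1, R 4.3.3), with Benjamini-Hochberg adjustment over all 28844 features and a threshold of 0.05. The fitting code was tested on simulated data. Counts of detected probes were compared by 2-sided exact permutation tests (scipy 1.17.1). Python 3.11.15, pandas 2.3.3, numpy 2.4.6 and matplotlib 3.10.9 were used. Alternatives were quantile normalization, median scaling, the percentile over probes detected on all arrays, normexp (offset 50, on the median signal, since no mean signal column was used), the series table, other filters and detection rules, scan blocks, a replicate block, stages from the titles, only the arrays of the stages compared, and leaving out 1 array. The comparison within 1 scan and the replicate block over 2 stages were added after the data were seen. Deviations from the stage means correlated at 0.11 to 0.29 in all 5 same-numbered pairs of secretory and maturation arrays, and at -0.11 to 0.25 in 10 pairs with a cervical loop array, 3 of them over 0.1. The numbers were thus taken to pair the secretory and maturation samples only, from these data and not from the labels.

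Members named are, per comparison, the 8 largest increases and 8 largest decreases that passed the threshold without overlap of the stages and were detected on all 5 arrays of the higher stage; the 10 probes of highest mean signal; all members highest in the secretory stage or maturation and the 8 of largest margin in the cervical loop; 4 just outside the filter; and both lists. The elements uc.185+, uc.186+, uc.251+, uc.340+, uc.423+ and those just inside the filter were added for the strand, neighbour and filter descriptions after their values were seen. The members, lists and tests were chosen with earlier results of these data known.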

Additional observations from a re-analysis of the deposited data

Results flagged for a closer look

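A sample lay apart from the other 4 of its stage in 13 of 110 groups of 5 arrays, by Dixon's ratio above 0.71 of the range; chance alone marks about 1 in 20 groups. In the cervical loop, replicate 2 had 184 detected members, where the next lowest array had 231, and uc.390+ at -4.36 was also lowest there. Cervical loop replicate 4 was lowest for the Srsf3 element at -3.84 and for uc.471+ at 2.70, and replicate 5 was highest for uc.33+ at -1.77. In the secretory stage, replicate 3 was highest for uc.174+ at 1.87, replicate 4 lowest for the Srsf3 element at -4.36 and replicate 1 lowest for uc.461+ at -4.77. In maturation, replicate 2 was lowest for the Srsf3 element at -4.35 and for uc.471+ at 3.32, and replicate 4 was highest for uc.246+ at -2.91. Maturation replicate 5, the array scanned with secretory replicates 1 to 3, was highest for uc.277+ at -2.55 and lowest for uc.37+ at 1.07. The probe of the Srsf3 element was marked in all 3 stages. No cause of these values was tested.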

How the results depend on the processing

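Arrays limited the results by signal over background: 288 members were not tested and 193 were, and lower bounds replace folds where a stage had 0 detected arrays. Scalings moved the split of higher and lower calls. In the secretory stage against the cervical loop there were 36 higher and 86 lower members, and 64 and 53 after quantile normalization, 64 and 49 in the series table, and 70 and 11 of 81 in all with normexp. In maturation against the cervical loop there were 16 and 122, and 36 and 68 after quantile normalization, 35 and 65 in the series table, 37 higher with median scaling, and 73 lower of 85 in all with normexp. In maturation against the secretory stage the lower members were 110, or 70 with the series table, and the higher ones 18, or 8 with normexp. Of the members highest in the cervical loop there were 30, against 12 with quantile normalization, 10 with the series table and 0 with normexp; those highest in the secretory stage fell from 9 to 4 and in maturation from 4 to 0 with normexp. The cause of the difference to normexp was not tested.

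Filters changed the number tested. With no filter on dim probes the calls were 188 (137 lower), 260 (243 lower) and 253 (237 lower). The order is secretory against cervical loop, maturation against secretory and maturation against cervical loop. Lower were 28.5%, 50.5% and 49.3% of the members, against 31.3%, 35.0% and 41.1% of all features. Higher were 10.6%, 3.53% and 3.33% of the members, against 16.7%, 18.9% and 15.5%. The F test gave 354 calls, and 61 members were highest in the cervical loop. Over the members detected on all 15 arrays the calls were 73 (45 lower), 83 (11 higher, 72 lower) and 78 (9 higher, 69 lower). Lower were 36.0%, 57.6% and 55.2% of these members, against 33.4%, 34.8% and 39.1% of all features so detected. The F test gave 107 calls, and 7 were highest in the cervical loop and 1 in maturation. For F tests and highest-in-stage counts under these filters no share of all features is given, so they are not results about the members. The mean number detected was 197.6 (cervical loop) and 155.4 (secretory) when every spot had to pass, 256.8, 198.2 and 210.4 for the 3 stages when 1 spot had to, and 342.8, 284.4 and 296.2 by the flag for a positive and significant signal.

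For maturation against the secretory stage, the scan as a fixed block gave 24 calls (8 higher, 16 lower) and the comparison within the scan that holds both stages 13 (6 higher, 7 lower). With stages from the titles there were 0 calls (0 higher, 0 lower) in limma among members and among all features, and 0 members were highest in the secretory stage and 0 in maturation. By construction the titles exchange most arrays of these stages, and the log2 differences of the named members then had the opposite sign: 1.05 for uc.25+, 0.51 for uc.28+, 0.47 for uc.51+, 0.65 for uc.73+, 0.97 for uc.83+, 1.00 for uc.117+, -0.72 for uc.121+, -0.75 for uc.129+, 0.90 for the Tra2b element, -0.42 for uc.154+, -0.42 for the element before uc.174+, -0.69 for uc.176+, 0.64 for uc.184+, -1.99 for uc.217+, 0.31 for uc.228+, 0.63 for uc.239+, -0.41 for uc.246+, 2.86 for uc.277+, -0.81 for uc.287+, -0.89 for uc.324+, 1.30 for uc.335+, 0.32 for the element after that of Pcbp2, 0.64 for uc.350+, 2.32 for uc.363+, -0.89 for uc.403+, -0.011 for uc.420+, 2.22 for uc.428+, 0.92 for uc.456+, 1.93 for uc.468+ and 0.54 for the Ogt element. With normexp the sign turned for the secretory stage against the cervical loop at 0.043 for uc.51+, 0.11 for uc.73+, 0.16 for uc.81+, 0.11 for uc.324+, 0.018 for uc.350+, 0.0016 for uc.129+, 0.028 for uc.25+ and 0.075 for uc.251+, and for maturation against the secretory stage at -0.074 for uc.129+, -0.088 for uc.176+, -0.076 for uc.287+ and -0.26 for uc.324+. With the scan as a block and within the scan it turned for uc.51+ at 0.20 and for uc.228+ at 0.089.

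Of 96 differences of named members that passed, those that kept their direction and their side of the threshold were 85 with quantile normalization, 90 with median scaling, 81 with the series table, 70 with normexp, 91 with the scan as a random block, whose correlation was 0.08, and 12 of 30 with the scan as a fixed block. Leaving out 1 array at a time gave 109 to 129 calls for the secretory stage against the cervical loop (32 to 41 higher, 74 to 88 lower), 111 to 132 for maturation against the secretory stage (13 to 19 higher, 97 to 113 lower) and 126 to 140 for maturation against the cervical loop (13 to 19 higher, 112 to 122 lower). The F test then passed for 163 to 170, and 24 to 35 members were cervical-loop-highest, 8 to 10 secretory-highest and 4 highest in maturation in each case. Mean numbers detected ran from 222.5 to 236.5, 168.25 to 175.75 and 174.0 to 187.0 in the order of the stages. With the replicate number as a block there were 126 and 132 calls for the first and second comparison and as many as without it for maturation against the cervical loop. Over the secretory and maturation arrays alone, whose numbers were taken to pair the samples, the block gave 139 calls (21 higher, 118 lower). These were 10.9% and 61.1% of the members, against 28.9% and 37.8% of all features. This fit was chosen after the data were seen. Of the differences of named members these blocks ended 1 call, that of uc.243+ for the secretory stage against the cervical loop (1.07, adjusted p = 0.0504), and no other.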
